A study of Mus musculus with 8 samples.

Results

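Brevican (*Bcan*), versican (*Vcan*), the link proteins *Hapln1* and *Hapln3* and the hyaluronan receptor *Cd44* were followed in the pulp of postnatal day 7 (P7) mouse molars with and without deletion of the TGFβ receptor gene *Tgfbr2*. The set named 10 genes, of which these 5 are rows of the table of 12148 genes. *Acan*, *Ncan*, *Has1*, *Has2* and *Has3* were not analysed here. The set was chosen by the fall of *Bcan* between the genotypes in these same libraries, so the *Bcan* values are given as a description without a test. The other 4 genes share its family or the binding of hyaluronan, and they too were chosen with earlier results of these data known.

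RNA was measured by low-input RNA-Seq in 4 control and 4 mutant libraries of C57BL/6J mice. Control mice carried Osterix-Cre, a Cre recombinase driven by the promoter of Osterix (*Sp7*), a transcription factor of odontoblasts, osteoblasts and their precursors. Mutant mice, Osterix-Cre:*Tgfbr2*f/f or Tgfbr2cko, carried the same Cre and a floxed *Tgfbr2*, so Cre was shared by the groups and the deletion was directed to cells with a history of Osterix expression. Each library held the pulp of mandibular first molars, with the left and right molar combined. The labels number the libraries 49 to 52 (control) and 53 to 56 (mutant) and do not tie each of them to an animal, so p-values measure the spread between these libraries. A further number in the library titles repeats within genotypes (4, 4, 2 and 5 in controls, 3, 2, 2 and 3 in mutants) and is not explained, so whether libraries that share it are separate animals is unknown.

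The libraries held 8682872 to 13539670 reads over the genes of the table, and 1 read equalled 0.0739 to 0.115 CPM, the reads of a gene scaled to a fixed library total. Library 56 stood apart. Reads of the enamel protein genes *Amelx*, *Ambn* and *Enam*, products of the ameloblasts that lie outside the pulp, made up 19.2% of library 56 and 0.334 to 2.87% of the other 7. They are 3 of 7 enamel organ markers, and of the other 4 *Mmp20*, *Amtn* and *Odam* in library 56 were not above the highest control, while *Klk4*, an enamel protease, was lower in all mutants than in all controls. The median log2 CPM over all genes was 4.81 in library 56 and 4.92 to 5.08 in the other 7. A large share of reads in few genes lowers the CPM of the rest, and the main values carry no correction for it. *Tgfbr2* itself ranged from 7.16 to 7.64 log2 CPM in controls and from 7.00 to 7.61 in mutants, with library 56 the highest mutant (difference -0.29, adjusted p = 0.790 in limma). The *Tgfbr2* row counts the whole gene and cells without Cre are in the tissue, so it does not check the deletion.

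Hyaluronan is a long sugar chain made at the cell surface by the Has enzymes. The lecticans, aggrecan (*Acan*), versican, neurocan (*Ncan*) and brevican, are chondroitin sulfate proteoglycans that bind hyaluronan with their N-terminal end and tenascins or fibulins with their C-terminal end. Link proteins of the Hapln family clamp a lectican to the hyaluronan chain, and CD44 holds the chain at the cell membrane. Brevican is best known from the brain, where glia and neurons deposit it around synapses and in perineuronal nets that limit axon growth. Versican is the common lectican of loose embryonic connective tissues, dental mesenchyme included.

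In the mouse genome (GRCm38), *Bcan* (ENSMUSG00000004892) lies on chromosome 3 from 87987531 to 88000230 on the minus strand. *Vcan* (ENSMUSG00000021614) and *Hapln1* (ENSMUSG00000021613) are neighbours on chromosome 13, *Vcan* from 89655312 to 89742509 on the minus strand and *Hapln1* from 89539796 to 89611652 on the plus strand, 43659 bases apart. *Hapln3* (ENSMUSG00000030606) lies on chromosome 7 from 79115102 to 79131018 on the minus strand, 2 bases from the end of *Acan*. *Cd44* (ENSMUSG00000005087) lies on chromosome 2 from 102811141 to 102901665 on the minus strand. The lectican and link protein genes are paired on the chromosomes, and the pairing of *Bcan* is with *Hapln2*, 21519 bases away and not analysed here. No exon of the 5 genes overlapped an exon of another gene in the annotation.

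The promoters of *Bcan*, *Cd44* and *Hapln1* are printed because the first 2 genes had control and mutant values that did not overlap, and *Hapln1*, whose values did overlap, is printed beside them as a window that holds the motif searched for. Each is the 250 bases before the RefSeq gene start (GRCm38.p6) on the strand of the gene, at chr3:88000357-88000606 for *Bcan*, chr2:102901666-102901915 for *Cd44* and chr13:89540386-89540635 for *Hapln1*. Capitals mark CAGAC or its reverse complement GTCTG, the short element that Smad3 and Smad4, the transcription factors below the TGFβ receptor, can bind.
Bcan: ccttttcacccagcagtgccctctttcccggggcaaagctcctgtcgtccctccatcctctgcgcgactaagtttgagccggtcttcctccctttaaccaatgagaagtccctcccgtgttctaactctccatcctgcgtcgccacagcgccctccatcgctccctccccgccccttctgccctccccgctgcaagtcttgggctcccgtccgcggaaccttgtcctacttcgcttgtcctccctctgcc
Cd44: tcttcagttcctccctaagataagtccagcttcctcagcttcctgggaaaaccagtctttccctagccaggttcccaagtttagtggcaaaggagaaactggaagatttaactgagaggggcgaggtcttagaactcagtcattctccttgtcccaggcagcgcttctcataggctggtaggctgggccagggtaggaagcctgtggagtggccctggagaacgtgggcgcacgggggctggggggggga
Hapln1: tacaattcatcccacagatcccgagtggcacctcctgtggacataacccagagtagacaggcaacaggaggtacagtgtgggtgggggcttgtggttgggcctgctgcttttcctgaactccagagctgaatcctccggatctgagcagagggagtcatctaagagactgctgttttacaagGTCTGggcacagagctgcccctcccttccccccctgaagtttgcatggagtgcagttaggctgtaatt

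Both strands were searched. *Hapln1* held 1 copy of CAGAC on the strand opposite the gene, at bases -68 to -64 counted from its start, and *Hapln3* held 1 at -131 to -127. The *Bcan*, *Cd44* and *Vcan* windows held 0. CAGAC was in 42.1% of 27025 mouse promoter windows of this length. The longer palindrome GTCTAGAC, which shares letters with CAGAC without containing it, was in 0.174% of windows and in none of those of the 5 measured genes. These matches describe letters in the window and do not show binding.

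*Bcan*, the gene that chose the set, had 5.45, 5.20, 5.66 and 6.10 log2 CPM in control libraries 49, 50, 51 and 52. The mutant libraries 53, 54, 55 and 56 had 4.09, 4.29, 4.29 and 3.30. Every mutant library was below every control library, with 0.91 log2 between the lowest control and the highest mutant. The means were 5.60 ± 0.38 (SD, n = 4) in controls and 3.99 ± 0.47 (SD, n = 4) in mutants, a difference of -1.61 or 3.05-fold lower. These values rested on 355 to 701 reads in controls and 133 to 240 reads in mutants. Without library 56 the difference was -1.38 and the groups still did not overlap. Among all genes 0.700% were lower and 0.247% were higher in mutants at an adjusted p under 0.05, and in 3.14% of genes no mutant library reached the lowest control. Nothing is read from *Bcan* against these shares, because the same contrast picked it. In bulk tissue, fewer cells that make a transcript and less transcript in each cell cannot be told apart.

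*Cd44*, the hyaluronan receptor, had 6.60, 6.53, 6.38 and 6.42 log2 CPM in the control libraries and 6.73, 6.66, 7.09 and 7.86 in the mutant libraries. All mutant libraries were above all control libraries, but the gap between library 49 and library 54 was 0.06 log2, and library 56 was far above the other mutants. The means were 6.48 ± 0.10 (SD, n = 4) and 7.09 ± 0.55 (SD, n = 4), a difference of 0.61 or 1.52-fold with a 95% interval of 0.12 to 1.09. In limma the unadjusted p was 0.0181 and the adjusted p 0.363 over all genes, and the exact two-sided permutation p was 0.0286, the smallest that 70 arrangements of 4 against 4 can give. *Cd44* therefore passed the rule by which the study called a transcript altered (p under 0.05 and at least 1.5-fold) and did not pass an adjusted p of 0.05. Without library 56 the difference was 0.35 (adjusted p = 0.429 in limma) and under 1.5-fold. *Amelx*, *Ambn* and *Enam* were highest in this library, and with their mean level as a covariate the difference was also 0.35. The study listed *Cd44* among the altered axon genes of this experiment, for which it gives another number of samples a group than was analysed here, so its direction here is not independent evidence.

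*Vcan*, the main lectican of connective tissue, had 7.77, 7.56, 7.29 and 7.31 log2 CPM in controls and 8.38, 8.0, 7.76 and 7.22 in mutants. Libraries 53 and 54 were above every control, and library 55 was level with the highest control. Library 56 was the lowest of all 8 in CPM, uncorrected for its low median over all genes. The means were 7.48 ± 0.23 and 7.84 ± 0.49 (SD, n = 4 each), a difference of 0.36 with an interval of -0.12 to 0.83, unadjusted p = 0.126 and adjusted p = 0.801 in limma and an exact permutation p of 0.286. The value moved with single libraries and settings. Without library 53 the difference was 0.18. Without library 56 it was 0.56 and the unadjusted p of limma passed 0.05, while the adjusted p of 0.200 still missed the threshold. With the enamel covariate the difference was 0.52, again with only the unadjusted p under 0.05, as also with quantile normalization (0.39), with library weights (0.47) and with libraries of the same title number averaged (0.42). Neither *Vcan* nor *Cd44* had an adjusted p under 0.05 in any of the 17 alternative analyses.

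*Hapln1*, the link protein gene beside *Vcan*, had 5.64, 6.09, 5.80 and 5.80 log2 CPM in controls and 5.99, 6.04, 5.65 and 4.85 in mutants. The mutants other than library 56 lay within the control range. The difference was -0.20 (interval -0.71 to 0.30, adjusted p = 0.973), and without library 56 it was 0.06. *Hapln3*, a link protein gene found in many tissues, had 3.47, 3.53, 3.95 and 3.90 in controls and 4.26, 4.31, 2.94 and 2.99 in mutants. Its mutant libraries split into a pair above all controls and a pair below all controls, on 66 to 243 reads a library. The *Hapln3* difference was -0.09 (interval -0.79 to 0.61, adjusted p = 0.998). The intervals of both link proteins include changes of 1.5-fold downwards, and that of *Hapln3* also upwards, so changes of that size were not detectable as present or absent with 4 libraries a group.

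**Figure D1:**
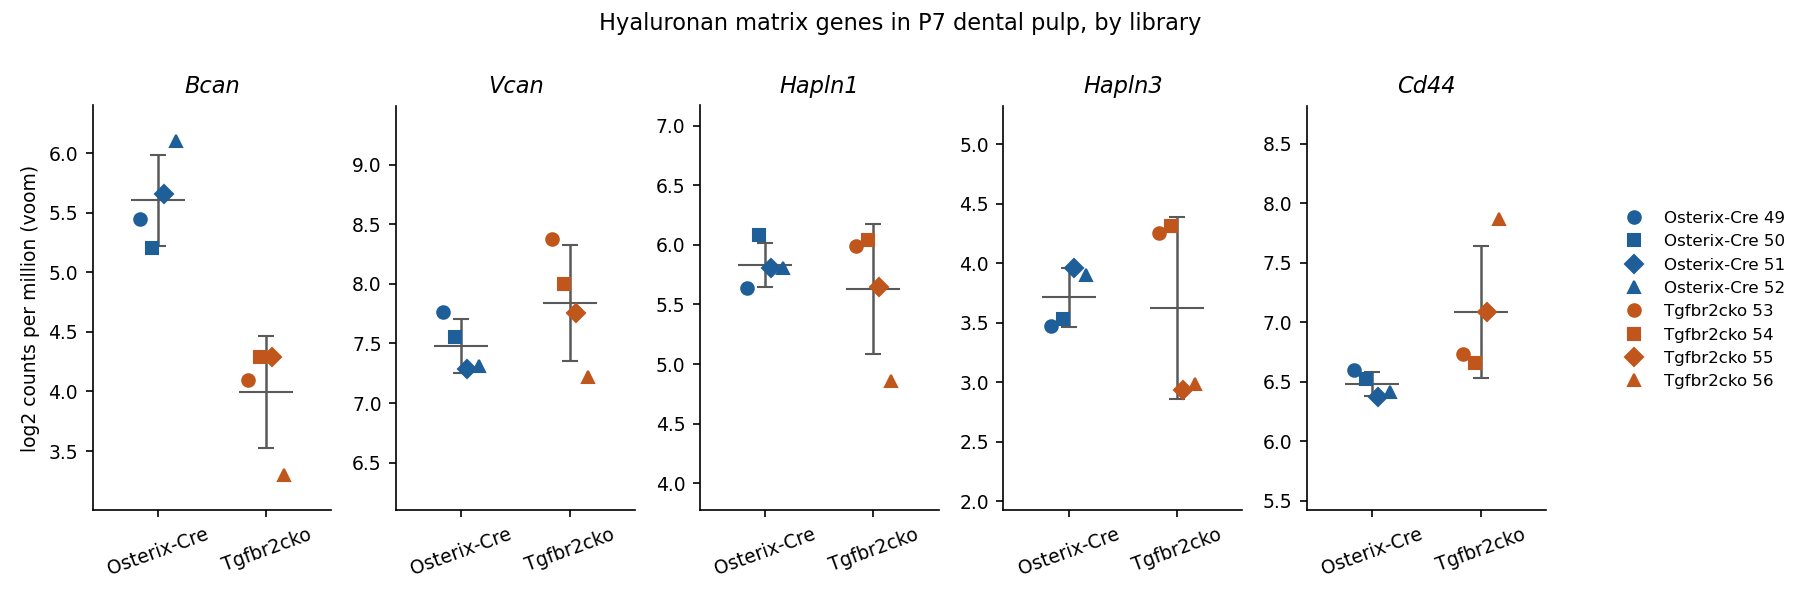
Deposited log2 CPM (y axis, each panel spanning the same number of log2 units) of the 5 measured genes in each control (blue) and mutant (orange) library, with horizontal lines for the mean and bars for the SD of 4 libraries. *Bcan* and *Cd44* do not overlap between genotypes, and mutant library 56 (orange triangle) is the lowest mutant for *Bcan*, *Vcan* and *Hapln1* and the highest for *Cd44*.

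Of the 4 genes other than *Bcan*, 1 was altered upwards by the rule of the study and 0 downwards, against 2.12% higher and 3.65% lower over all genes measured. At an adjusted p of 0.05 limma called 0 of the 4 genes, with 1 of 4 at an unadjusted p under 0.05, against 8.38% of all genes. The mutant libraries were all higher than the controls in 1 of the 4, against 2.13% of all genes. The median change over all genes was -0.01.

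Read counts were next divided by exon length, to compare levels between genes. In controls the order was *Cd44* at 13.2 ± 0.935 CPM per kb of exon, *Vcan* at 12.5 ± 2.0, *Bcan* at 12.3 ± 3.36, *Hapln1* at 9.71 ± 1.30 and *Hapln3* at 3.76 ± 0.648 (SD, n = 4). The first 4 of these overlapped with their neighbours in the order, and *Hapln1* and *Hapln3* were the only neighbours with separate values. In control pulp, transcripts of brevican were therefore about as abundant per length as those of versican, at the 67.5th and 67.8th percentile of all genes. In mutants the order was *Cd44* at 21.3 ± 9.04, *Vcan* at 16.5 ± 5.32, *Hapln1* at 8.81 ± 2.86, *Bcan* at 4.05 ± 1.13 and *Hapln3* at 3.87 ± 1.92. *Hapln1* exceeded *Bcan* in 4 of 4 mutant libraries and in 1 of 4 control libraries.

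**Figure D2:**
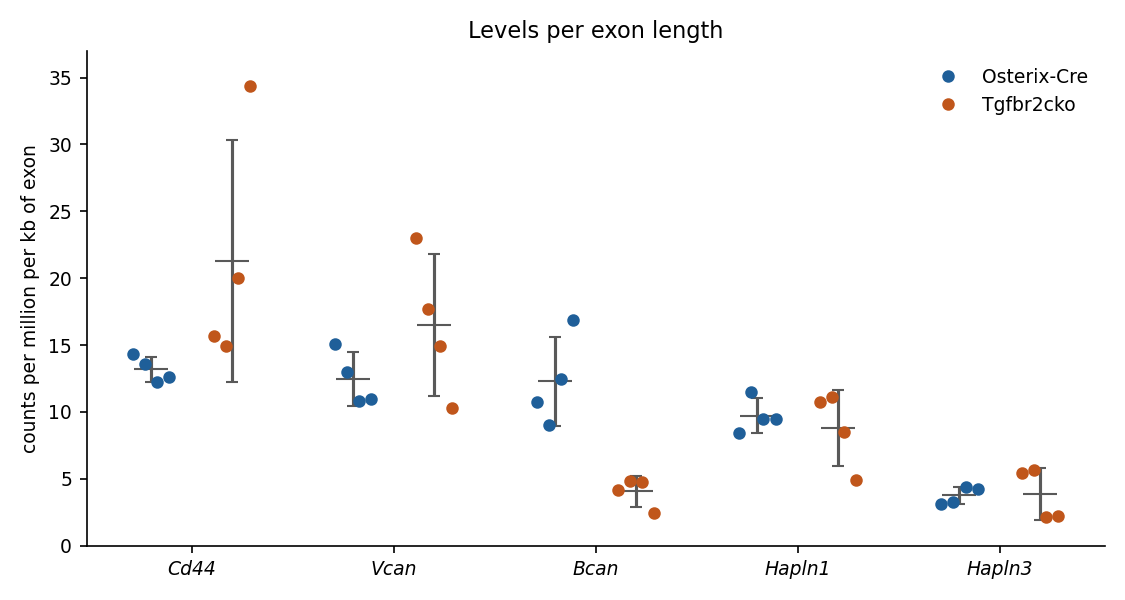
CPM per kb of exon (linear y axis from 0) for the 5 measured genes in control (blue) and mutant (orange) libraries, 1 point a library, with mean and SD (n = 4). *Vcan* and *Bcan* overlap in controls, at means of 12.5 and 12.3, and separate in mutants, at 16.5 and 4.05.

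The ratio of *Vcan* to *Bcan* per kb was 1.40, 1.44, 0.869 and 0.650 in control libraries 49 to 52. In mutant libraries 53 to 56 it was 5.50, 3.67, 3.12 and 4.25. Every mutant ratio exceeded every control ratio, and library 56, with the lowest CPM of *Vcan* and of *Bcan*, lay among the other mutants. On the log2 scale the means were 0.05 ± 0.56 and 2.02 ± 0.35 (SD, n = 4). The ratio contains *Bcan*, which chose the set, and is a description. The ratio of *Hapln1* to *Vcan* ranged from 0.559 to 0.885 in controls and from 0.467 to 0.630 in mutants, and these ranges overlapped.

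The genes that make, bind and cut this matrix were then examined in 5 lists, 49 of whose 69 genes were in the table. By the rule of the study 2 were altered upwards and 5 downwards, against 2.12% and 3.65% of all genes, and 42 were not altered. At an adjusted p under 0.05 limma called 0 of the 49, with 9 at an unadjusted p under 0.05 against 8.38% of all genes, and 6 of 17 alternative analyses called 1 or 2 of them. The median change over the 49 was -0.02 log2. The genotypes did not overlap in 6 of the 49, with the mutants higher in 2 and lower in 4, against 2.13% and 3.14% of all genes.

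Among 8 measured genes of hyaluronan turnover and supply, *Cemip*, whose product drives hyaluronan degradation, was altered. It had 3.33, 3.04, 4.04 and 4.03 log2 CPM in controls and 4.25, 4.58, 5.03 and 4.51 in mutants. All mutants were above all controls, and the difference was 0.99 with an SE of 0.26 (adjusted p = 0.118). The most abundant others were *Ugdh*, which makes the glucuronic acid precursor (0.23), and the hyaluronidase *Hyal2* (0.13), neither of them altered. The median of the list was 0.23.

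Among 8 measured hyaluronan receptors and binding proteins 2 were altered, both downwards, and the median was -0.27. *Stab1*, a scavenger receptor of macrophages and sinusoidal endothelium from the family of the hyaluronan uptake receptor *Stab2*, had 6.73, 6.74, 7.19 and 6.56 in controls and 6.30, 6.13, 6.28 and 5.70 in mutants. These groups did not overlap (difference -0.70, SE 0.18, adjusted p = 0.108). *Tnfaip6*, which transfers heavy chains onto hyaluronan, averaged 4.78 ± 0.22 in controls and 4.20 ± 0.19 in mutants (-0.59, SE 0.18, adjusted p = 0.21). Of 6 macrophage and 6 endothelial markers 2 each were altered, all downwards, and the medians were -0.46 and -0.35. The summed level of 6 macrophage markers was 1061 to 1406 CPM in controls and 505 to 1092 CPM in mutants, with *Lyz2* (adjusted p = 0.028) and *Cd68* altered, and that of 6 endothelial markers was 237 to 331 CPM and 187 to 239 CPM, with *Cldn5* (adjusted p = 0.00853) and *Tek* altered. The mean of each of the 12 was lower in mutants. Their part in the *Stab1* difference was not tested.

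The list of lectican-cleaving proteases and their inhibitor gave 0 altered of 6 measured, and the median was 0.12. *Timp3*, an inhibitor of these proteases, had a difference of -0.41, with an unadjusted p under 0.05 but less than 1.5-fold, and *Adamts9*, a versican-cleaving protease, 0.23. Of 20 measured genes of chondroitin sulfate chain synthesis 1 was altered upwards and 2 downwards, with a median of -0.06. *Chst13*, a chondroitin 4-O-sulfotransferase, had 5.30, 4.59, 5.39 and 5.20 in controls and 4.0, 4.61, 4.08 and 3.68 in mutants. Mutant library 54 was just above control library 50 and all other mutants were below all controls, and the difference was -1.03 (SE 0.23, adjusted p = 0.0619). *Dsel*, an epimerase that turns chondroitin into dermatan sulfate, had a difference of -0.71 (SE 0.20, adjusted p = 0.162). *Pxylp1*, which removes the phosphate from the xylose of the linker on which the chain is built, had a difference of 0.78 (SE 0.21, adjusted p = 0.118).

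Among 7 measured partners of lecticans and other nerve proteoglycans 1 was altered, and the median was -0.12. *Fbln1*, a fibulin that binds the C-terminal end of aggrecan and versican, averaged 9.95 ± 0.37 in controls and 9.33 ± 0.28 in mutants without overlap (-0.62, SE 0.21, adjusted p = 0.287). Its lowest control (library 52, 9.541) and highest mutant (library 55, 9.537) almost touched. *Tnc*, the tenascin to which lecticans bind (-0.29), and *Fbn1*, a microfibril protein that binds versican (-0.12), were not altered.

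**Figure D3:**
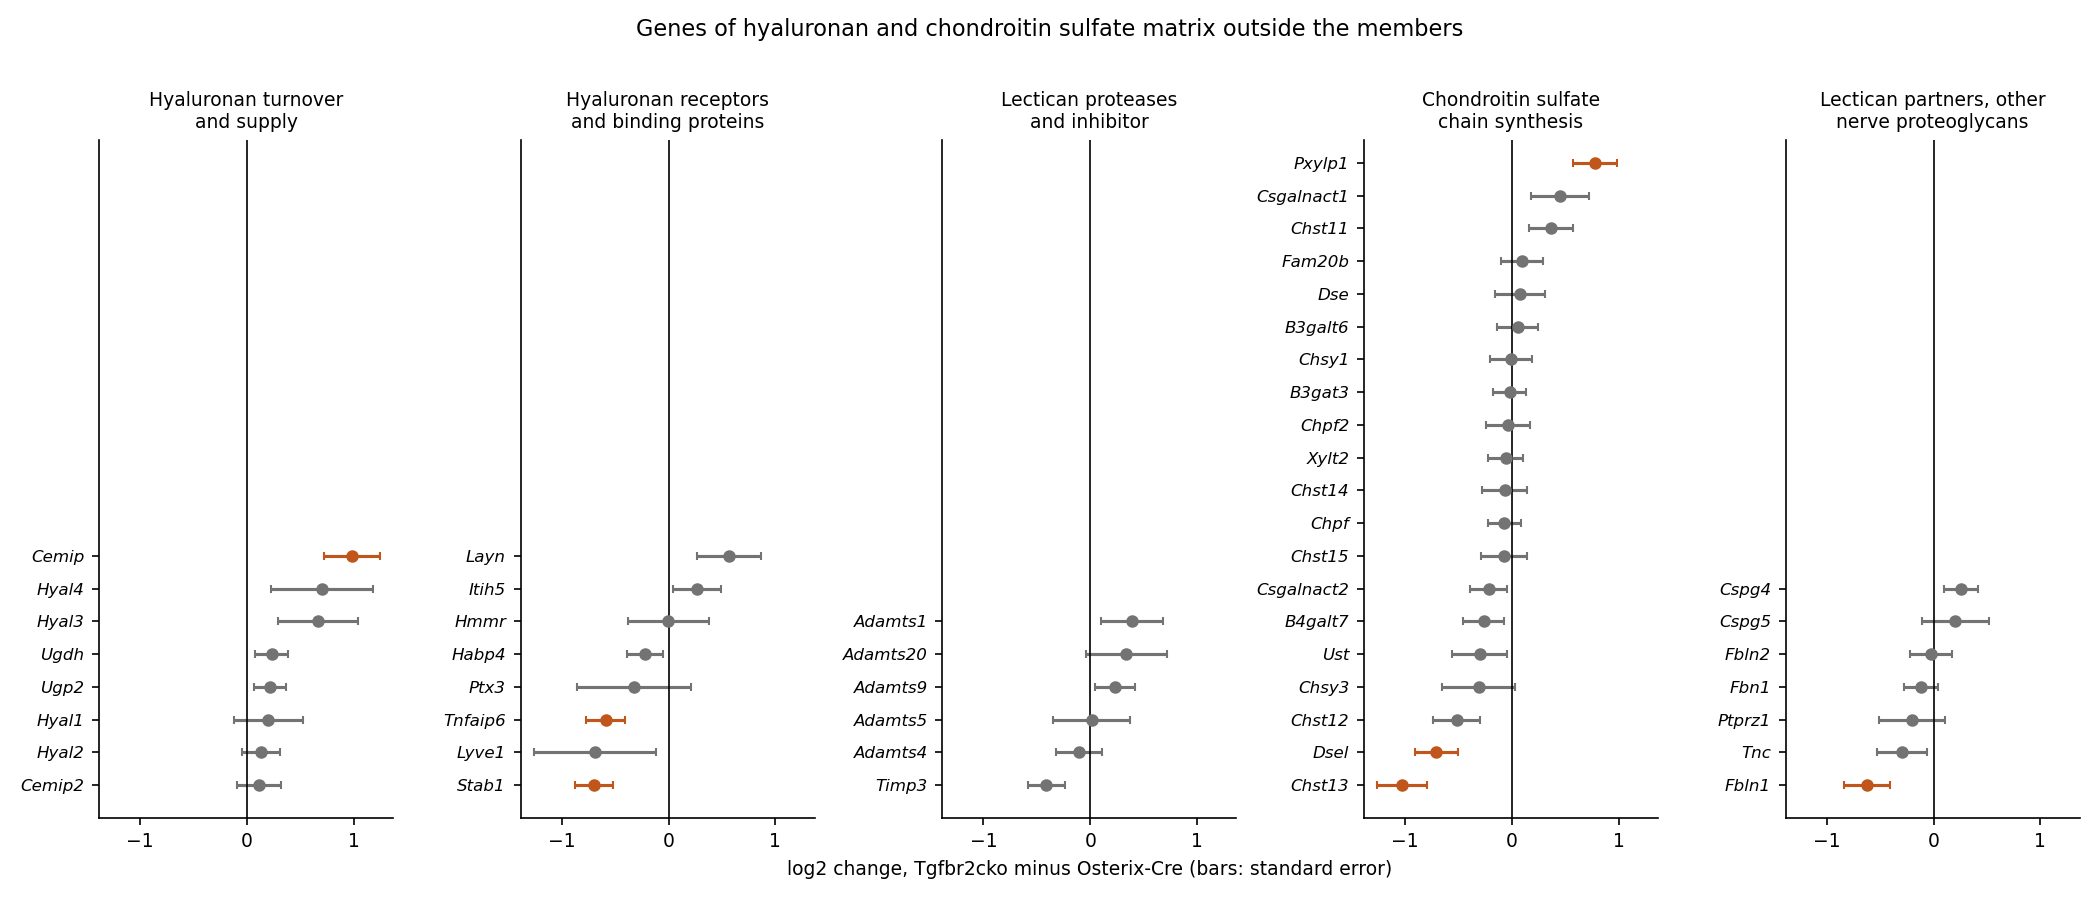
Difference in log2 CPM between mutants and controls (x axis, with standard errors from limma) for the 49 measured genes of 5 lists, ordered by size within each list. Orange marks the 7 genes with p under 0.05 and at least 1.5-fold, 2 to the right of 0 (*Cemip* and *Pxylp1*) and 5 to the left.

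The tissue was checked against cell markers. Of the 7 enamel organ markers 1 was altered, *Klk4*, with a difference of -2.71 (adjusted p = 1.36e-04) and no overlap, and the summed level ranged from 3965 to 23284 CPM in controls and from 4120 to 193232 CPM in mutants. All 7 odontoblast markers were in the table, at a summed 60595 to 133547 CPM in controls and 36235 to 74189 CPM in mutants, with *Col1a2* (-1.22) and *Nes* altered downwards. The other 5 were not altered, at -0.86 for *Col1a1*, -0.71 for *Dspp*, -0.44 for *Dmp1*, 0.05 for *Sp7* and 0.14 for *Phex*, and the median of the 7 was -0.71. Most of the odontoblast sum was *Col1a1* and *Col1a2*, with control means of 15.8 and 14.5 log2 CPM, against 9.32 for *Phex* and 7.34 for *Sp7*. The 5 Schwann cell markers analysed summed to 196 to 262 CPM in controls and 152 to 198 CPM in mutants. *Ncmap* (-2.01) and *Egr2* (-1.70, on 3 to 24 reads) were altered downwards, *Pmp22* (-0.04) was not altered, and *Mbp* was higher with an unadjusted p under 0.05 but less than 1.5-fold (0.57, adjusted p = 0.337). Of 7 markers of oligodendrocytes and astrocytes, the brain cells known for brevican, only *Pdgfra*, which mesenchyme also expresses, was in the table. Of 8 cartilage markers, a tissue rich in link protein, 4 were in the table, at 1236 to 2197 CPM in controls and 1103 to 1902 CPM in mutants, and 0 were altered. Most of that sum was *Col11a2* (-0.27), while *Col2a1* (0.57) and *Col9a1* (0.87) were not altered and the median of the 4 was 0.25. The part of these cells in the *Bcan* difference was not tested. *Nes*, singled out after its values were seen because it is the next gene to *Bcan* at 7079 bases, averaged 9.71 ± 0.46 in controls and 8.90 ± 0.44 in mutants (-0.81, SE 0.26, adjusted p = 0.235).

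To describe how *Bcan* varied apart from the genotype difference, each genotype mean was subtracted and the 8 residuals were compared with those of 10312 genes with a mean of at least 3 log2 CPM. The libraries share depth and composition, so these correlations (Pearson r, n = 8) are descriptions without a test. An r above 0.9 was found for 144 genes, and the median r was 0.22. The closest were *AI467606* (0.996), *Fxyd6* (0.986), *Nfatc1* (0.984), *Pdk1* (0.982) and *Raver2* (0.978). Of these 5, *Fxyd6*, a regulator of the sodium pump, was also lower in mutants to a similar degree (-1.54), while the genotype differences of *AI467606* (0.15), *Nfatc1* (-0.07), *Pdk1* (0.40) and *Raver2* (-0.35) were small beside that of *Bcan*. Over all 8 values, genotype difference included, *Ctse* (0.996), *Fxyd6* (0.995), *Grb14* (0.986), *Mypn* (0.985) and *Irgq* (0.983) were closest, by a measure that includes the contrast that picked *Bcan*.

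Within genotypes the r of *Bcan* with the 7 odontoblast markers was 0.89 for *Phex* and *Sp7*, 0.84 for *Dspp*, 0.82 for *Col1a1*, 0.79 for *Col1a2*, 0.78 for *Nes* and 0.60 for *Dmp1*. Without library 56 (n = 7) these values ranged from 0.72 for *Sp7* to 0.91 for *Col1a2*, and those of the 5 closest genes from 0.962 to 0.991. Over all 8 libraries the r of *Bcan* with enamel organ markers was -0.55 for *Amelx*, -0.60 for *Ambn*, -0.51 for *Enam*, -0.25 for *Klk4* and -0.06 for *Mmp20*. *Amtn*, *Odam* and the other cell marker lists were not compared in this way. The r of *Bcan* with the other members was 0.58 for *Hapln1*, 0.50 for *Hapln3*, 0.35 for *Vcan* and -0.76 for *Cd44*. These rested on library 56, without which they were -0.35, 0.17, -0.59 and -0.23. The same holds for the neighbours *Vcan* and *Hapln1* (0.77, and 0.26 without library 56) and for *Vcan* with *Cd44* (-0.75 and -0.14). *Cd44* ran opposite to *Hapln3* (-0.80 and -0.98) and to *Hapln1* (-0.94 and -0.64) with or without it. These values without library 56 were added after the data were seen.

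**Figure D4:**
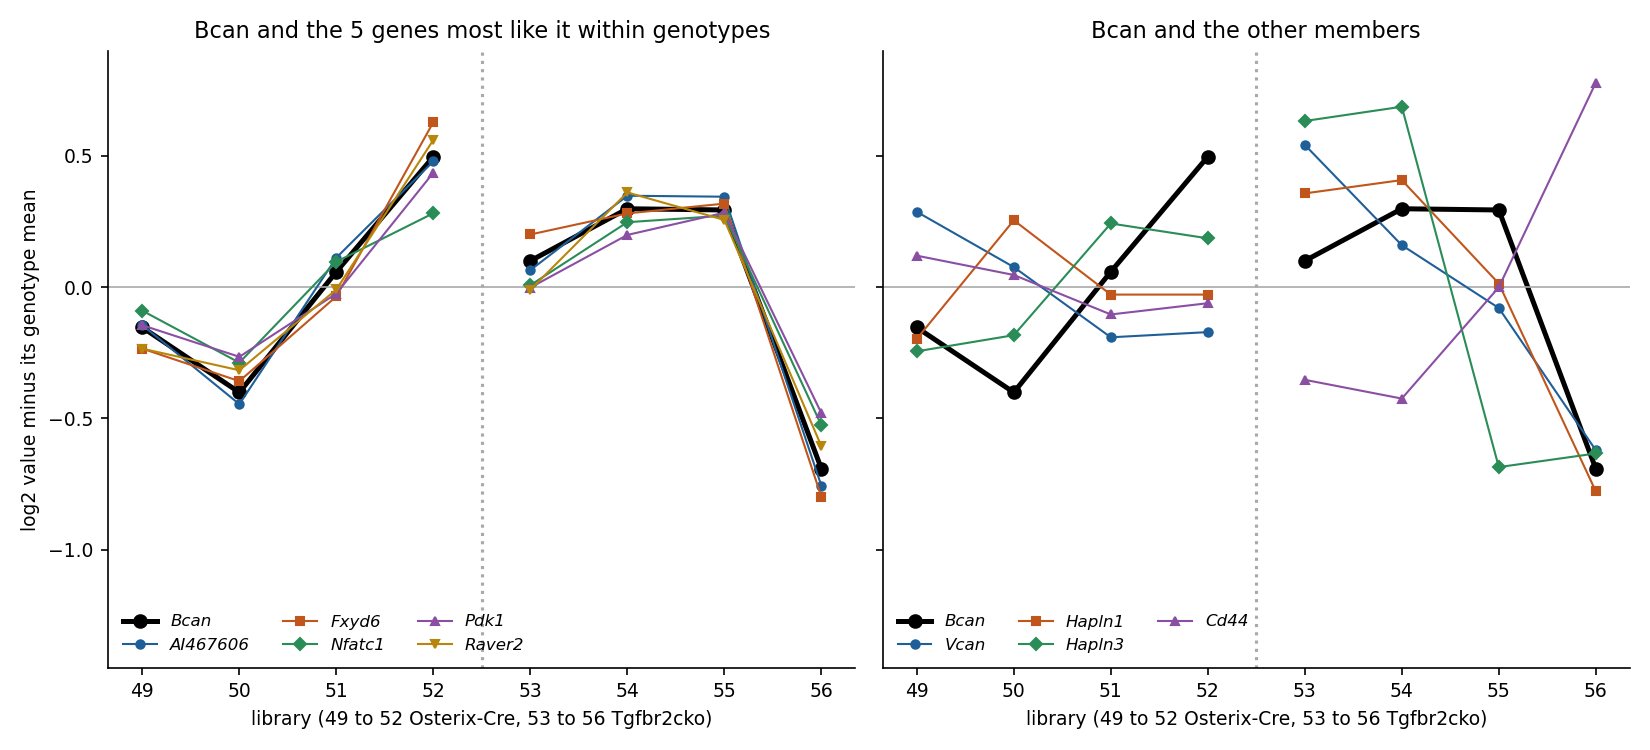
Log2 CPM minus the genotype mean (y axis) in libraries 49 to 56 (x axis), for *Bcan* (black) with the 5 genes most like it (left) and with the other measured genes of the set (right). Lines join libraries only to guide the eye. The genes on the left, picked for their correlation with *Bcan*, follow it with small departures, such as *Fxyd6* in library 51. On the right *Cd44* peaks in library 56, where *Bcan*, *Vcan* and *Hapln1* are lowest.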

How the data were processed

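RNA-Seq libraries were made from P7 first molar pulp by low-input preamplification (SMART-Seq HT) and Nextera XT. According to the submitters' processing notes, reads were trimmed with fastp 0.21.0, aligned with HISAT2 2.1.0 to GRCm38.p5 and counted per gene with featureCounts (Subread 2.0.1). The study's methods also name HISAT2 and featureCounts, but write the genome under another name and do not mention fastp. Whether counting used strand is not given in the sources used here. The deposited values are log2 CPM (counts scaled to a fixed library total) from voom in limma, after the authors' filter on low genes, for 12148 genes in 8 libraries. A shared offset of 0.5 reads compresses changes of low genes, and genes removed by the filter cannot be assessed.

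Adding back the offset returned whole reads for all 97184 values (within 0.001 reads), and these gave the depths and the levels per kb of exon (union of exons, GENCODE M21 on GRCm38, 12144 of 12148 IDs matched). Genotypes were compared on the log2 values with limma-trend (limma 3.58.1, R 4.3.3), all 8 libraries in the fit, two-sided, with Benjamini-Hochberg adjustment over all 12148 genes. Single genes were also compared by an exact permutation test. Promoter windows came from RefSeq. Figures used matplotlib 3.10.9.

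The members and gene lists were chosen with earlier results of these data known. Besides all members, the text names up to 4 altered genes of each of the 5 matrix gene lists by lowest p (or, where fewer than 2 were altered, also the 2 most abundant), the 5 genes most correlated with *Bcan* in each of 2 ways, and *Tgfbr2*. *Nes* and the genes of the cell marker lists were named outside this rule, with their values seen. The 17 alternatives were the fit without trend, library weights, voom weights, quantile normalization, median centring, a minimum mean log2 of 3, log2(CPM + 1), the enamel genes as a covariate, averaging of libraries with the same title number, and each library left out.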

Additional observations from a re-analysis of the deposited data

Results flagged for a closer look

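Of 56 groups of 4 libraries examined among the named genes, 4 held a value farther from the others than Dixon's 95% limit for the gap over the range, where chance flags about 1 group in 20. Mutant library 56 held 2 of them. *Hyal2* was at 6.87 log2 CPM there, above the nearest mutant at 6.61, and *Fxyd6*, the gene close to *Bcan* in both comparisons, was at 6.26, below the nearest mutant at 7.25. Among controls, *Tnfaip6* in library 49 was at 5.12, above the nearest at 4.71, and *Adamts9* in library 50 was at 6.18, below the nearest at 6.73. None of the 5 measured members was among them.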

How the results depend on the processing

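*Bcan* and *Cd44* kept their direction in all 17 alternatives, and the unadjusted p of *Cd44* stayed between 0.0031 and 0.0444 (adjusted p 0.116 to 0.643). The p of *Vcan* was under 0.05 in 5 of 17 (0.00663 to 0.394, adjusted p 0.200 to 1.00), while those of *Hapln1* and *Hapln3* were under 0.05 in 0. The difference of *Hapln1* turned to 0.072 with the enamel covariate and to 0.058 without library 56, and that of *Hapln3* to 0.24 with the covariate, 0.14 without library 55 and 0.12 without library 56. The number of altered genes among the 4 tested members went from 1 to 0 with library weights, with the enamel covariate, and without library 51 or 56, because the fold of *Cd44* dropped under 1.5. Over all genes the count at an adjusted p under 0.05, 115, became 258 with library weights. Leaving out each library in turn gave 65 (without 51) to 165 such genes, with 70 without 52 and 72 without 55, 625 to 947 altered genes, 0 to 1 altered members and 6 to 9 altered pathway genes. In the same runs *Bcan* ranged from -1.74 to -1.38, *Vcan* from 0.18 to 0.56, *Hapln1* from -0.34 to 0.06, *Hapln3* from -0.32 to 0.14 and *Cd44* from 0.35 to 0.75. *Cemip*, *Chst13* and *Pxylp1* were altered in 17 of 17, *Dsel* in 16, *Stab1* in 15, *Fbln1* in 12 and *Tnfaip6* in 10. Dividing by the longest transcript raised the control level to 15.9 CPM per kb for *Bcan*, 14.5 for *Vcan* and 15.9 for *Cd44*, because that length is shorter than the exon union. Leaving out each control moved it between 10.7 and 13.4 for *Bcan*, 11.6 and 13.0 for *Vcan*, 9.11 and 10.1 for *Hapln1*, 3.55 and 3.97 for *Hapln3* and 12.8 and 13.5 for *Cd44*. No paired analysis was possible because the library numbers differ between the genotypes, and of the title numbers only 2 occurs in both. With libraries of the same genotype and title number averaged, *Bcan* was at -1.70 and *Cd44* at 0.63, and 157 genes had an adjusted p under 0.05. Among the 5 members depth limits *Hapln3* most, with 66 reads in its lowest library.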
